A study of Mus musculus with 52 samples.

Results

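The lens crystallins are the proteins that fill the fibre cells of the lens. The 9 crystallin genes described here, with Mip, which encodes the main water channel of lens fibre membranes, were taken by gene name from the deposited tables, and these 10 genes were found among the 39144 genes listed over all tissues. Eyes of male wild-type mice (3 samples) were compared with those of male mice homozygous for the Tug1_tm1.1Vlcg allele (Tug1-/-, 3 samples), in which lacZ stands in place of the lncRNA gene Tug1 downstream of its first exon, with the Tug1 promoter left intact. By the labels the background is C57BL/6J/129S6 (N3-C57BL/6J) with no Neo cassette, for both genotypes, and the age of the mice is not given in the sources used here. There were also 3 samples per genotype of liver, of heart, of spleen and of MEFs, fibroblasts cultured from embryos, while prostate had 3 wild-type and 2 Tug1-/- samples. Testes came from 4 wild-type mice, 4 Tug1-/- mice whose background is labelled Neo and LacZ where that of the wild type is labelled no Neo, and 3 rescue mice, which carried that allele, a doxycycline-inducible Tug1 transgene and the CAGs-rtTA3 driver, and were given doxycycline. Brain values came from libraries outside this series and serve only as a further tissue.

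Crystallins reach very high concentrations in lens fibre cells, which lose their nuclei and organelles as they mature, so that the proteins made early must stay soluble for life. The alpha crystallins, encoded by Cryaa and Cryab, are small heat shock proteins that bind unfolding proteins. The beta and gamma crystallins form a separate family of structural proteins, with acidic beta members (Cryba1, Cryba2, Cryba4), basic beta members (Crybb1, Crybb2, Crybb3) and the gamma S crystallin encoded by Crygs. Cryab also serves as a chaperone of the contractile apparatus in heart and skeletal muscle.

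Every level below is the authors' mean over a group, in TPM (a length-corrected share of the library). Values of single samples were not analysed here and the comparison statistics deposited with the means were not used, so the levels are given with no spread between animals, no difference between genotypes is tested, and whether groups overlap is not said. A ratio is Tug1-/- over wild type, on the log2 scale after a pseudocount of 0.1 TPM was added to each mean, and 1.5-fold is used only as a mark of size. Because whole tissue was sequenced, fewer cells of a type and less RNA per cell cannot be told apart.

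The targeted gene followed the labels in all 8 tissues. Tug1 lay between 10.1 and 57.5 TPM in the wild-type means and at 0.0825% to 2.21% of these levels in Tug1-/-. In testes it was at 40.1 TPM in wild type, 0.885 TPM in Tug1-/- and 1.60 TPM in rescue. All 12 photoreceptor markers were listed in eyes, the lowest at 155 TPM in wild type. Markers of other cell types differed between the eye means. Over all 19709 genes at 1 TPM or more in either eye mean, 3.19% were over 1.5-fold higher and 4.68% lower. The summed level of 10 skeletal muscle genes was 7008 TPM in the wild-type mean and 12312 TPM in Tug1-/-, and 9 of the 10 were over 1.5-fold higher. That of 5 erythroid genes was 699 and 2179 TPM, with 5 of 5 over 1.5-fold higher. For 6 genes of the corneal epithelium it was 9031 and 6278 TPM, with 3 of 6 over 1.5-fold lower. Of 6 genes of the conjunctival and glandular epithelium, 3 were over 1.5-fold higher, while the list summed to 560 and 541 TPM. They were Pigr at 2.00 and 6.55 TPM, Ltf at 3.52 and 7.56 TPM and Muc5ac at 0.556 and 8.43 TPM. Muc5ac reached 1 TPM only through the Tug1-/- mean, so nothing is read from its place past 1.5-fold. The 7 genes of the retinal pigment epithelium summed to 4277 and 4227 TPM, and none of these or of the 12 photoreceptor genes was past 1.5-fold.

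The sequences upstream of crystallin genes are shown because crystallin genes are classic targets of large Maf proteins, transcription factors that bind the Maf recognition element. RefSeq promoter windows (GRCm38.p6) were matched for 9 of the 10 genes, all but Cryab. The 160 bases before the annotated start are printed for 6 of them, 5′ to 3′ on the gene's strand. Capitals mark TGCTGA, the core of each arm of the palindromic Maf recognition element, or its reverse complement TCAGCA, and TATAAA on the gene's strand.
Cryaa, chr17:31677771-31677930, plus strand: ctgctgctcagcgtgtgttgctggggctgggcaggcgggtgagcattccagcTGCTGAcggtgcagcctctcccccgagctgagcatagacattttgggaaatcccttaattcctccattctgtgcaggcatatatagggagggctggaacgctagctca
Cryba1, chr11:77725294-77725453, minus strand: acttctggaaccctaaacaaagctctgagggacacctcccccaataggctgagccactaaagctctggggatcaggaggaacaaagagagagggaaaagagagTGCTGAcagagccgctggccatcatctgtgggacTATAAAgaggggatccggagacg
Cryba4, chr5:112252519-112252678, minus strand: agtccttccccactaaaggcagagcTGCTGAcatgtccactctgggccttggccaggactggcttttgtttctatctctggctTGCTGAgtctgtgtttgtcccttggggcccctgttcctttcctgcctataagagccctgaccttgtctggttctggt
Crybb1, chr5:112255660-112255819, plus strand: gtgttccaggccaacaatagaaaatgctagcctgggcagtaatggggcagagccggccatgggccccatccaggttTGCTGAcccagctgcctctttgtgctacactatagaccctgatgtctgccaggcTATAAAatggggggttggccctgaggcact
Crybb3, chr5:113081585-113081744, minus strand: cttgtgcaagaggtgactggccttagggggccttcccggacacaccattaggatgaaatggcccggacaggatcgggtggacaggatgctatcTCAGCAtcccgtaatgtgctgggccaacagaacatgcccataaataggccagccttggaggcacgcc
Crybb2, chr5:113070118-113070277, minus strand: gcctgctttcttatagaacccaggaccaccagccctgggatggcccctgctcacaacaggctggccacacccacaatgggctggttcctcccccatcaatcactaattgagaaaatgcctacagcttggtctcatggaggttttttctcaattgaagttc

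TGCTGA occurred on either strand within the 250 bases before the start in 8 of the 9 genes, against 16.5% of all 32851 promoter windows searched over the same length. Crybb2 was the gene without a match. Positions are those of the match's first base, with -1 the base just before the annotated start. The match stood at -57 in Cryba1, -67 in Crybb3, -84 in Crybb1, -108 in Cryaa, -132 in Mip, -149 in Cryba2 and -200 in Crygs. The window of Cryba4 held 3 matches, at -182, -135 and -77. TATAAA was found in 5 of the 9 genes and in 7.69% of all windows. It stood at -30 in Crybb1, -25 in Crygs and -23 in Cryba1, but at -3 in both Cryba2 and Mip. The letters overlap with those of longer motifs, and a match does not show that a factor binds.

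**Figure D1:**
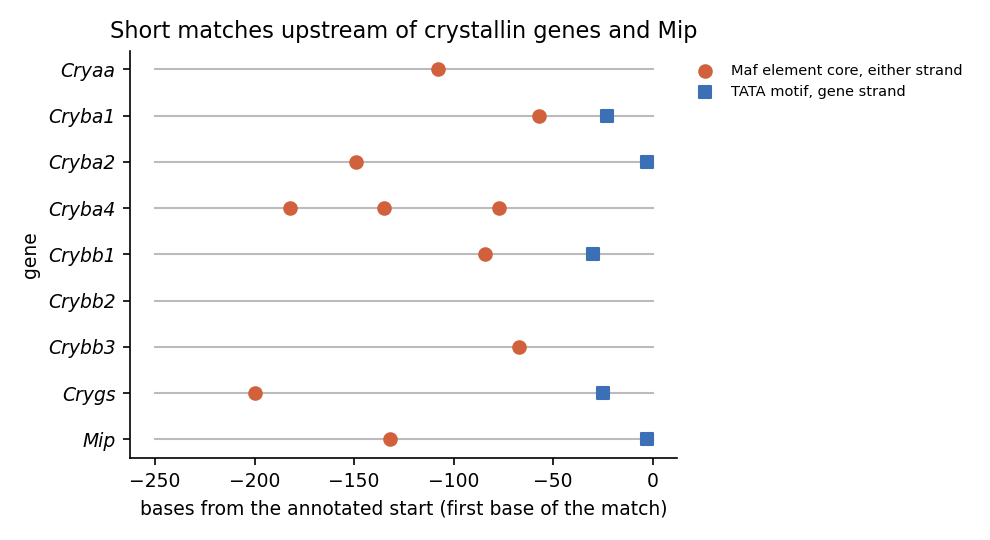
Matches to 2 short motifs, the Maf element core on either strand (circles) and the TATA motif on the gene's strand (squares), by distance in bases from the annotated start, in the 9 genes with a promoter window. Cryba4 holds 3 Maf element matches and Crybb2 holds neither motif.

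In eyes, the 10 genes together made up 5.68% of the wild-type TPM total and 5.57% in Tug1-/-. Their means differed little between the genotypes. The largest difference in either direction was 1.10-fold, and none of the 10 passed 1.5-fold, where 3.19% of the 19709 genes at 1 TPM or more were past it on the higher side and 4.68% on the lower. None was more than 25% higher, or lower by the same factor, a size reached by 21.6% of all these genes and by 21.2% of the 241 genes at 400 TPM or more in wild type, the range in which the 10 genes lie. With 10 genes, none past 1.5-fold is close to that background.

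The alpha crystallins lay on either side of a ratio of 0. Cryaa (chr17:31677933-31681724, plus strand) was at 12449 TPM in the wild-type mean and 12094 TPM in Tug1-/-, a log2 ratio of -0.04. It ranked 6th of all genes in wild-type eyes and 5th in Tug1-/-. Cryab (chr9:50751325-50756636, plus strand) was at 4269 and 4630 TPM, a log2 ratio of 0.12 and the highest ratio of the 10. Cryaa thus stood 2.92 times above Cryab in wild type and 2.61 times above it in Tug1-/-, while their sum was 16718 and 16723 TPM.

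The 3 acidic beta crystallins had nearly equal means in both genotypes, 14967 TPM in wild type summed and 14701 TPM in Tug1-/-. Cryba1 (chr11:77718615-77725283, minus strand), whose single gene yields both the A3 and the A1 protein, was at 5576 TPM in the wild-type mean and 5591 TPM in Tug1-/-. Cryba4 (chr5:112246493-112252518, minus strand) was at 5374 and 5200 TPM, a log2 ratio of -0.05. Cryba2 (chr1:74889934-74893143, minus strand) was at 4016 and 3911 TPM, a log2 ratio of -0.04.

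All 3 basic beta crystallins had lower means in Tug1-/-, and their sum was 16032 TPM in the wild-type mean and 15016 TPM in Tug1-/-. Crybb2 (chr5:113058258-113070117, minus strand), the most abundant of the 10 genes and 4th of all genes in both genotypes, was at 13352 and 12477 TPM, a log2 ratio of -0.10. Crybb3 (chr5:113075839-113081584, minus strand) was at 829 and 753 TPM, and its log2 ratio of -0.14 was the lowest of the 10. Crybb1 (chr5:112255815-112269585, plus strand) was at 1851 and 1787 TPM, a log2 ratio of -0.05. These 3 genes share chromosome 5 with Cryba4. Crybb1 and Cryba4 are divergent, with 3296 bases between their starts, and Crybb2 and Crybb3 follow each other on the minus strand with 5721 bases between them.

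Crygs (chr16:22805203-22811410, minus strand), the gamma crystallin made in the adult lens as well, was at 8606 TPM in the wild-type mean and 8776 TPM in Tug1-/-, a log2 ratio of 0.03. Mip (chr10:128225838-128231812, plus strand) was the least abundant of the 10, at 473 and 480 TPM, a log2 ratio of 0.02. From Crybb2 to Mip the wild-type levels spanned 28.2-fold.

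**Figure D2:**
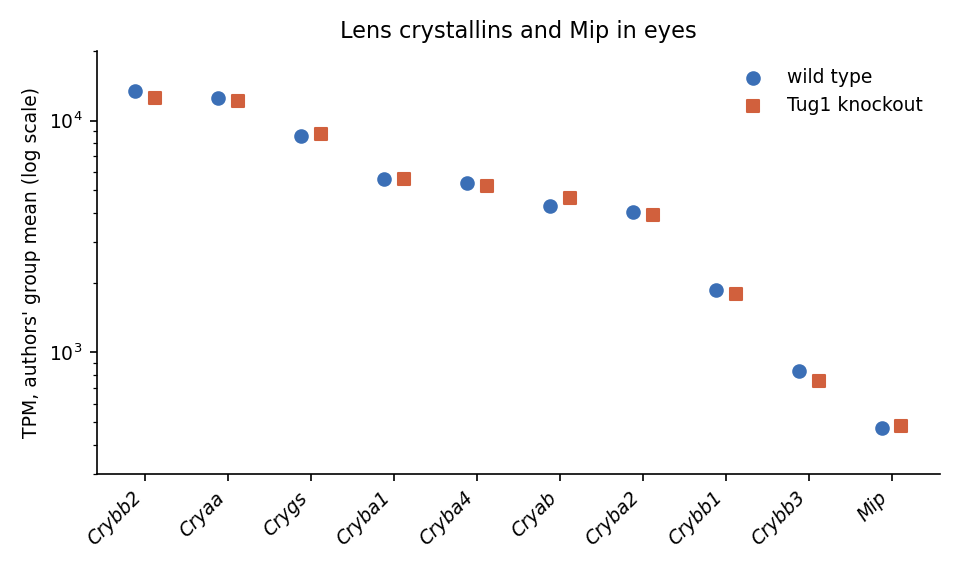
Levels of the 10 genes in eyes as group mean TPM on a log scale, in order of the wild-type level, with circles for wild type and squares for Tug1 knockout (3 samples each, no error bars because only means were read). The pairs nearly coincide, from Crybb2 at 13352 and 12477 TPM down to Mip at 473 and 480 TPM.

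The median log2 ratio of the 10 genes was -0.04, with 4 above 0 and 6 below. Over all 19709 genes the median was -0.11, and 80% of the ratios lay between -0.40 and 0.21. Set against that median, 9 of the 10 genes were above it and Crybb3 was just below. The direction of a difference this small therefore depends on the scaling. The counting error of a ratio, estimated from the authors' mean normalised counts of 13988 (Mip) to 429191 (Cryaa), was 0.0018 to 0.010 on the log2 scale (1 SE), which covers counting only and leaves out the spread between animals.

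The order of the levels depends in part on the lengths used for TPM. Counts and TPM implied, for 8 of the 10 genes, a length within 5% of the summed length of all annotated exons, and the gene models of Cryaa and Crygs differ between annotation releases. For Crybb3 this length was 2.61 times that of the principal transcript, for Crybb2 2.22 times, and for Cryba4 1.04 times, while for Mip the lengths were equal. By counts per base of the principal transcript, Crybb2 and Cryaa remained first and second, Cryba1 took the place after them from Crygs, and Mip remained last, with a span of 60.1-fold from Crybb2 to Mip in place of the 28.2-fold by TPM. Ratios between genotypes are not affected by gene length.

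Not one of the 100-base windows of the 10 genes, close to the length of a read, was found in a transcript of another gene. Only the sense sequence of each transcript was searched, so sharing with transcripts of the opposite strand is not covered. Overlaps in the genome were present for 4 of the 10 genes, and the sources used here do not say if the counting used strand. Cryab shares 1030 bases with Hspb2, a small heat shock protein gene on the opposite strand at 29.1 TPM in wild-type eyes and 40.9 TPM in Tug1-/- eyes. Cryba1 lies wholly inside Nufip2 on the other strand, which was at 67.2 and 62.5 TPM. Mip overlaps the lincRNA Gm26847 by 1223 bases and Crybb2 the pseudogene Gm43247 by 481 bases.

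Gamma crystallins, made mainly in the fibre cells laid down before and soon after birth, had lower means in Tug1-/- eyes. In the list of 7 genes, 4 were over 1.5-fold lower, against 4.68% of all genes, and none higher, with a median log2 ratio of -0.73. With a minimum of 10 TPM the count was 2. Crygb was at 4248 TPM in the wild-type mean and 2554 TPM in Tug1-/-, Crygc at 1925 and 1348 TPM, and Crygd at 1191 and 692 TPM. The other 2 past 1.5-fold, Crygf at 8.34 and 4.91 TPM and Cryga at 3.41 and 1.33 TPM, were low in both genotypes. The 2 genes with lower values that did not pass were Crygc, at a log2 ratio of -0.51, and Cryge, at -0.58, while Crygn, at 21.9 and 22.8 TPM, had the only ratio above 0. At least 8.73% of the windows of each of the other 6 genes were shared with another gene, so that their levels are less certain than those of the 10 genes. Summed, the 7 gamma crystallins were at 7400 and 4625 TPM, against 56796 and 55697 TPM for the 10 genes. No difference between these groups of genes was tested.

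Other genes of lens fibres spread more widely than the 10 genes. All 12 genes of fibre structure were listed, none passed 1.5-fold, and their log2 ratios ran from -0.37 to 0.55 with a median of -0.09. Lgsn, which encodes the lens protein lengsin, was at 1386 TPM in the wild-type mean and 1245 TPM in Tug1-/-. The filament genes Bfsp1 and Bfsp2, for the beaded filament of fibre cells, were at 1106 and 923 TPM and at 722 and 687 TPM. The 9 lens transcription factors at 1 TPM or more had a median of -0.13 and none passed 1.5-fold. Among them Pax6 was at 102 and 83.8 TPM, Prox1 at 77.3 and 65.1 TPM and Mafg at 62.4 and 63.6 TPM.

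Cryaa and Cryab belong to the small heat shock proteins. Of the 6 other members at 1 TPM or more in eyes, 1 was over 1.5-fold higher, against 3.19% of all genes, and none lower, and the median log2 ratio was 0.52. Hspb1 was at 382 TPM in the wild-type mean and 352 TPM in Tug1-/-, Hspb6 at 235 and 331 TPM, and Hspb8 at 89.2 and 131 TPM. Hspb7, a muscle protein, was past 1.5-fold at 28.7 and 50.5 TPM. The skeletal muscle genes given above were higher in the same comparison, and their part in the values of Cryab and of this family was not tested. Aquaporins, the family of Mip, had a median of -0.07 over 6 genes, with Aqp5 at 521 and 397 TPM, Aqp1 at 502 and 497 TPM and Aqp3 at 287 and 198 TPM. Aqp7 was the 1 aquaporin past 1.5-fold higher, at 2.88 and 4.39 TPM. The 7 other genes with crystallin in their names include metabolic enzymes outside the lens families. Their 8 entries (Crybg3 is listed under a pair of identifiers) had a median of -0.20. Of these entries, 1 was over 1.5-fold lower, against 4.68% of all genes. It was Crybg1, a relative of the beta and gamma crystallins found outside the lens, at 19.4 and 11.4 TPM, and the most abundant of the 7 was Cryzl1 at 39.8 and 38.6 TPM.

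**Figure D3:**
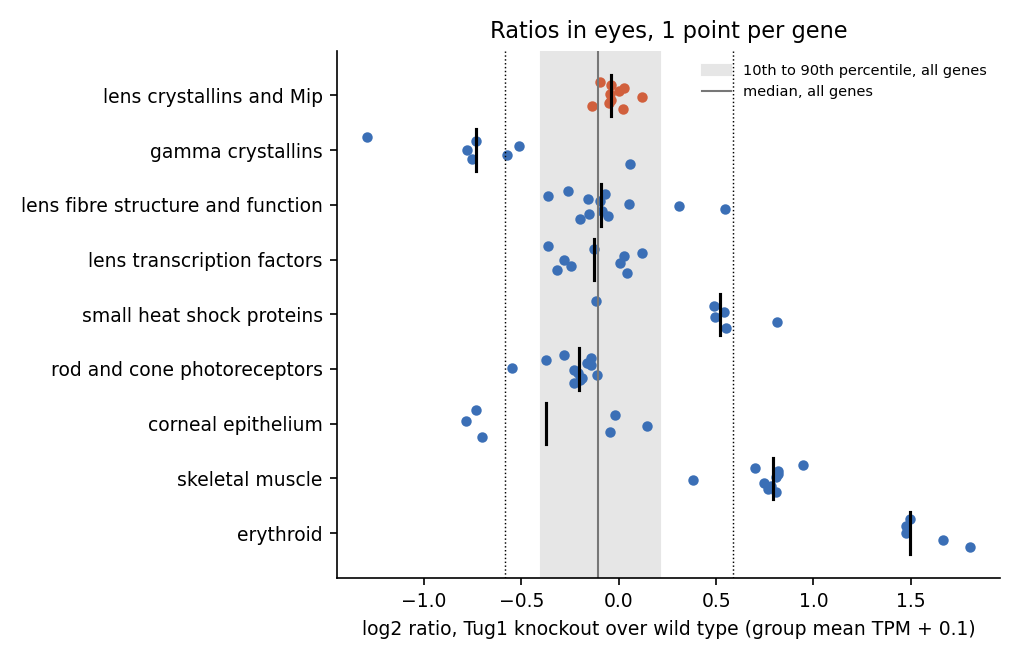
Log2 ratio of Tug1 knockout over wild type in eyes, 1 point per gene at 1 TPM or more, for the 10 genes and 8 gene lists. Black bars are list medians, dotted lines mark 1.5-fold, and the grey band holds the middle 80% of all genes around their median of -0.11. The 10 genes lie between -0.14 and 0.12, the gamma crystallins mostly below the band and the skeletal muscle and erythroid genes above it.

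Outside the eye, Cryab was the only one of the 10 genes above 25 TPM in any tissue. Its level in wild-type eyes was 3.09 times that in heart, the next tissue, and in Tug1-/- 2.69 times. In heart it was at 1379 TPM in the wild-type mean and 1723 TPM in Tug1-/-, a log2 ratio of 0.32. MEFs had 211 and 175 TPM, a log2 ratio of -0.27, and brain 208 and 204 TPM. Lower levels were found in prostate (23.1 and 28.6 TPM), spleen (14.2 and 12.4 TPM), liver (3.79 and 4.47 TPM) and testes (3.55 and 4.49 TPM, with 3.84 TPM in rescue). In Tug1-/- the order was the same except that brain stood above MEFs and testes just above liver, and whether such neighbours differ was not tested.

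In heart, the ratio of Cryab was read against a median log2 ratio of 0.10 over all 14004 genes at 1 TPM or more, of which 4.56% were past 1.5-fold in either direction. None of the 3 members at 1 TPM or more in heart was past it. The 5 heart markers had a median ratio of 0.32, equal to that of Cryab to 2 decimals, and the 6 other small heat shock proteins at 1 TPM or more a median of 0.16. Erythroid genes in heart summed to 44624 TPM in wild type against 34952 TPM in Tug1-/- over 5 genes. Skeletal muscle genes were over 1.5-fold lower for 7 of the 9 at 1 TPM or more, with a median log2 ratio of -3.82, while the sum of the list was 1327 and 1382 TPM. Of the 7, Mylpf (20.2 and 1.34 TPM) and Tnni2 (18.2 and 2.78 TPM) reached the minimum in both means. The others, such as Tnnt3 at 31.5 and 0.763 TPM, reached it only through wild type. Nothing is therefore read from this count or median. Of the spleen markers 4 of 4 at 1 TPM or more were over 1.5-fold lower in heart, with a sum of 40.6 and 18.8 TPM. The part of these genes in the ratio of Cryab was not tested. In the same order of genotypes, Cryba4 in heart was at 13.4 and 15.2 TPM, and Crybb1 at 2.72 and 4.01 TPM.

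The other 9 genes were 195 times lower or more, or not listed, outside the eye in wild type. A gene was left out of a tissue's table where it had fewer than 3 reads in every sample, and such a gene was set to 0. Of the 10 genes, 8 were listed in brain and in testes, 7 in spleen, 4 each in heart, liver and prostate, and 3 in MEFs. Crybb2 was listed only in testes besides eyes, at 0.0415 TPM, and Cryba1 only in spleen, at 0.0720 TPM in wild-type spleen. With the pseudocount, the log2 ratio of wild-type eyes over the highest other tissue was 16.53 for Crybb2, 14.98 for Cryba1, 14.73 for Cryaa, 12.15 for Crygs, 11.07 for Mip, 10.62 for Cryba2, 9.64 for Crybb3, 7.89 for Cryba4, 7.59 for Crybb1 and 1.63 for Cryab. These sizes depend on the pseudocount wherever the other tissue is near or below it. With a pseudocount of 1 TPM the ratio was 13.16 for Cryaa and 8.73 for Mip, which then stood below Cryba2 and Crybb3. Crybb1, at 9.48 and 9.78 TPM in brain, was the beta crystallin with the highest brain level. Crybb3 was listed in every tissue, at 0.232 to 0.936 TPM in the wild-type means outside eyes. Cryba2 in brain, at 0.651 and 1.05 TPM, reached the minimum of 1 TPM only through the Tug1-/- mean, so nothing is read from its place past 1.5-fold on the higher side, where 2.19% of all genes lay.

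**Figure D4:**
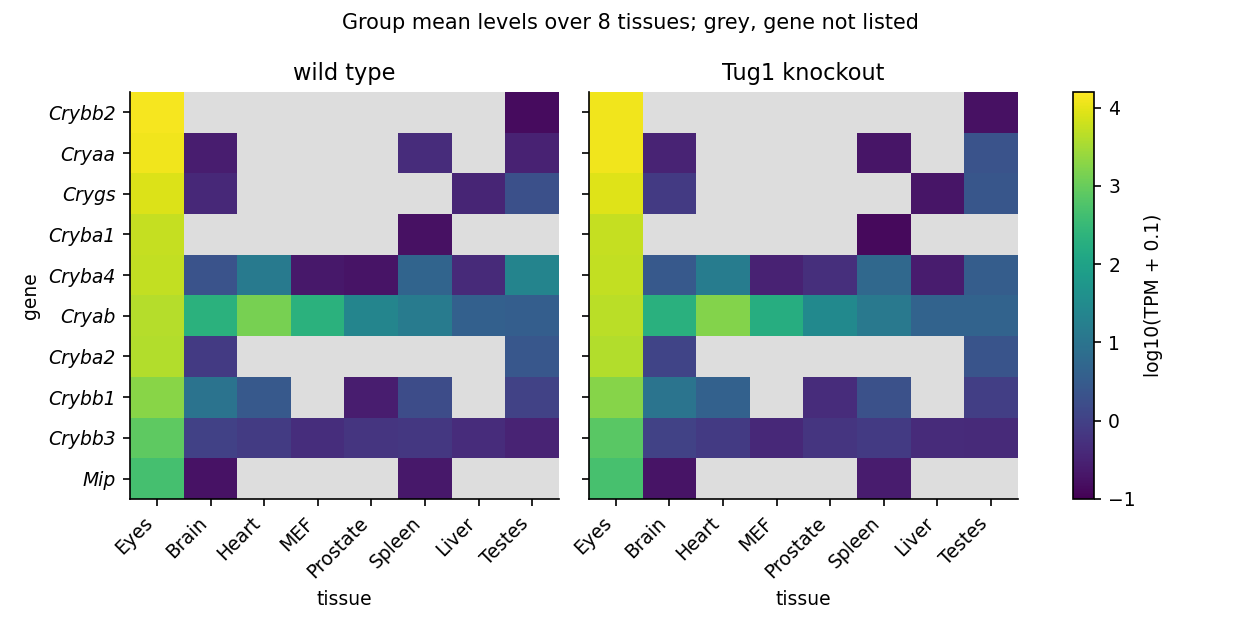
Level of the 10 genes over 8 tissues as log10 of group mean TPM plus 0.1, wild type on the left and Tug1 knockout on the right, with grey where a gene is not listed. Eyes are high for all 10, and only Cryab is high elsewhere, with 1379 and 1723 TPM in heart.

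In testes, the means of Cryba4 and Cryaa differed most from wild type. Cryba4 was at 22.6 TPM in wild type, 3.24 TPM in Tug1-/- and 0.307 TPM in rescue, log2 ratios to wild type of -2.76 and -5.80. Past 1.5-fold on the lower side were 3.51% of the 22378 genes in Tug1-/- and 5.14% of the 22393 genes in rescue, both set against the same wild-type samples. Cryaa had the opposite order, at 0.217 TPM in wild type, 2.06 TPM in Tug1-/- and 4.23 TPM in rescue. Past 1.5-fold on the higher side were 2.75% of genes in Tug1-/- and 2.79% in rescue. Cryaa reached the minimum of 1 TPM only through the groups in which it is high, so nothing is read from its place past 1.5-fold. Its log2 ratio of Tug1-/- over wild type was 2.77, and 1.33 with a pseudocount of 1 TPM. Even the highest of these Cryaa levels is a small fraction of the 12449 TPM in eyes.

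The genes beside them did not all follow. Within 100 kb of Cryba4, Tpst2, a protein tyrosine sulfotransferase, was at 18.5 TPM in wild type, 6.55 TPM in Tug1-/- and 6.00 TPM in rescue. Crybb1, its divergent neighbour, was at 0.966, 0.829 and 0.285 TPM, and Tfip11 at 33.7, 34.8 and 37.3 TPM. Near Cryaa, Cbs, an enzyme of cysteine synthesis, was at 1.57, 6.13 and 0.934 TPM, and U2af1 at 65.7, 68.4 and 72.6 TPM. The wild-type testis mean also held genes of the epididymis, the duct attached to the testis. A list of 10 such genes, chosen after their values were seen, summed to 5740 TPM in wild type, 804 TPM in Tug1-/- and 1.96 TPM in rescue, in the same order as Cryba4. Among them Gpx5 was at 1921, 0.981 and 0.297 TPM. Not every gene of the list had the order of the sum. Crisp1, which made up most of the sum in Tug1-/-, was at 427, 760 and 0.348 TPM, and Lcn9 at 444, 0.197 and 0.410 TPM. The skeletal muscle list summed to 16.1, 64.3 and 21.3 TPM. Of its 8 genes at 1 TPM or more, 7 were over 1.5-fold higher in Tug1-/- testes. Mylpf (2.91 and 8.70 TPM) and Myh1 (1.24 and 2.57 TPM) reached the minimum in both means. The others past 1.5-fold, such as Acta1 at 0.380 and 14.8 TPM, reached it only through Tug1-/-. Nothing is therefore read from this count. Of 5 erythroid genes, 4 were over 1.5-fold lower in Tug1-/-, with sums of 47.3, 39.6 and 39.6 TPM. The part of these genes in the values of Cryba4 and Cryaa was not tested. The other 3 members at 1 TPM or more in testes, Cryab, Cryba2 and Crygs, were within 1.5-fold, with Cryba2 at 2.46, 2.18 and 1.82 TPM and Crygs at 1.80, 2.41 and 2.22 TPM.

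**Figure D5:**
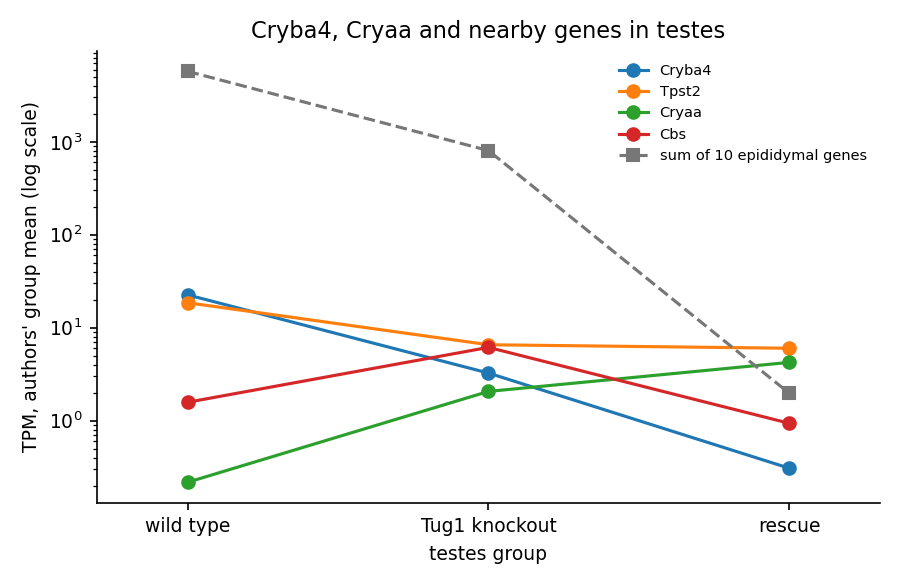
Group mean TPM on a log scale in testes of wild-type, Tug1 knockout and rescue mice for Cryba4 with its neighbour Tpst2, Cryaa with its neighbour Cbs, and the sum of 10 epididymal genes (dashed). Cryba4 and the epididymal sum share their order over the groups, but the list was chosen after its values were seen. Most of its sum in Tug1 knockout is Crisp1, at 760 TPM against 427 TPM in wild type. Cryaa is lowest in wild type at 0.217 TPM.

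The genes with the profile most like that of the 10 were mostly photoreceptor genes. Likeness was the root mean square difference of log2(TPM + 0.1) from the median profile of the 10 over 16 group means (8 tissues, 2 genotypes), among 11864 genes at 10 TPM or more in eyes. Among the nearest genes were Pde6a (0.87), Rbp3 (1.13), Rcvrn (1.17), Slc24a1 (1.22), Sag (1.27) and Lgsn (1.32), of which only Lgsn is a lens gene. Of the 10 genes, Cryaa (0.73), Cryba2 (0.77) and Crygs (0.92) lay nearest to their own median profile, and Cryab (7.99) lay farthest from it. The log2 ratios in eyes of the 6 genes named as nearest, from -0.23 to -0.14, were below the median of -0.04 of the 10 genes.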

How the data were processed

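RNA-seq of male mouse tissues (TruSeq RNA v2, paired ends) was aligned by the authors with STAR to GRCm38, and uniquely mapped reads were counted per GENCODE vM16 gene with featureCounts. Genes that had under 3 reads in all replicates were dropped. The deposited tables hold group mean TPM per gene. Stacked over tissues, this column and the mean normalised count are a signal scaled by the authors. The tables also hold the authors' own comparisons (fold changes, standard errors, p-values and calls from DESeq2), which were not used. Single-sample values were not analysed here, so depth per sample is unknown.

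The genes and lists were chosen with earlier results of these data known. Scripts in Python 3.11.15 (numpy 2.4.6, pandas 2.3.3) computed log2 ratios of group means with a pseudocount of 0.1 TPM, over genes at 1 TPM or more in either mean, and were tested on simulated data. Named were the 10 genes, Tug1, the 3 most expressed genes of each lens or family list and, of the 8 genes of most similar profile, 6 (the others are not reported here). Others named for a value past 1.5-fold, for an overlap or for their place beside Cryba4 and Cryaa in testes were chosen after their values were seen. Gene models came from GENCODE vM21 (GRCm38) and promoters from RefSeq. Alternatives covered the pseudocount, the scaling, the minimum and the fold. Testes of F1 hybrid mice (6 samples) were not analysed here.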

Additional observations from a re-analysis of the deposited data

How the results depend on the processing

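No paired analysis was possible because the tables read here hold group means, in which replicate numbers no longer appear, and for the same reason leaving out single replicates was not run. The count of crystallin genes and Mip past 1.5-fold in eyes was 0 under all 8 alternatives. With levels of 473 TPM or more and differences of 1.10-fold at most, several of these could hardly change it. They are the other pseudocounts, the other minima and the 2-fold mark. The median log2 ratio of the 10 genes, -0.04, became 0.0674 when centred on the median of all genes. It became -0.0054 when TPM was rescaled without crystallins and mitochondrially encoded genes. Centring placed 9 of the 10 genes above 0, at -0.03 to 0.22. The count of gamma crystallins lower in Tug1-/- eyes, an alternative chosen after seeing the data, was 4 as reported, 5 with a pseudocount of 0.01, 6 at the lower fold of 25%, 2 with a minimum of 10 TPM, which leaves fewer genes, and 1 past 2-fold. All 10 genes stood above every other tissue in eyes by either genotype's means and with a pseudocount of 1.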
